A study of Homo sapiens with 18 samples.

Results

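The 10 genes described here code for core proteins of proteoglycans, proteins that carry long sulfated sugar chains. They are *SRGN*, *SDC1*, *SDC2*, *SDC3*, *SDC4*, *GPC1*, *GPC3*, *VCAN*, *BGN* and *HSPG2*, out of 40266 genes in the expression table. *SRGN* was chosen on its values in these data, since it had the second lowest log2 fold change of all tested genes between Panc1 Holoclone and Panc1 Paraclone cells (−6.30, between *MMP1* at −6.72 and *GJA1* at −5.96). Its values in any comparison with those clone libraries are therefore given as a description, with no test. The other 9 genes were added as members of the same families, also with earlier results of these data known.

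The libraries came from 2 untreated human lines of pancreatic ductal adenocarcinoma (PDAC), with polyA RNA sequenced. Panc1 was derived from a primary tumour and served as the mesenchymal model, and Panc89 was derived from a lymph node metastasis and served as the epithelial model. Each line was studied as the parental cells and as 2 cell variants obtained by single-cell cloning, Holoclone cells, taken as cancer stem cells by colony shape, and Paraclone cells, taken as non-stem cells. There were 18 libraries, 3 for each of the 6 cell variants. The 3 libraries of a cell variant were labelled as biological replicates of the same cells, and each Holoclone or Paraclone group was grown from 1 clone of its line, so a p-value here measures the spread between cultures of that clone and not between clones.

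Proteoglycans are sorted by where they sit and which chains they carry. Serglycin (*SRGN*) is packed with chondroitin sulfate or heparin chains and stored in secretory granules, and it is best known from blood cells, although tumour cells can secrete it. Syndecans (*SDC1* to *SDC4*) span the cell membrane and mostly carry heparan sulfate, with which they hold growth factors near their receptors and bind matrix proteins. Glypicans (*GPC1*, *GPC3*) do so from a lipid anchor on the outer face of the membrane. Perlecan (*HSPG2*) is the large heparan sulfate proteoglycan of basement membranes, versican (*VCAN*) is the large chondroitin sulfate proteoglycan that binds hyaluronan, and biglycan (*BGN*) is a small leucine-rich proteoglycan that binds collagen. In pancreatic cancer, versican and biglycan are usually found in the stroma, and glypican-1 and syndecan-1 on tumour cells.

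The promoters shown first are those of the 3 members with a promoter entry whose Holoclone and Paraclone levels differed with the lowest adjusted p in either line. They belong to *HSPG2* (GRCh38, chromosome 1, 21822244 to 21937310, minus strand), *SDC4* (chromosome 20, 45325288 to 45348424, minus strand) and *GPC1* (chromosome 2, 240435663 to 240468076, plus strand). Each line holds the 250 bases before the start of the gene, 5′ to 3′ on the strand of the gene, from RefSeq on GRCh38.p14. Capitals mark every GC box, the sequence GGGCGG or its reverse complement, which the factor SP1 can bind, and neighbouring boxes may overlap. The windows are chr1:21937311-21937560 for *HSPG2*, chr20:45348425-45348674 for *SDC4* and chr2:240435413-240435662 for *GPC1*.
HSPG2: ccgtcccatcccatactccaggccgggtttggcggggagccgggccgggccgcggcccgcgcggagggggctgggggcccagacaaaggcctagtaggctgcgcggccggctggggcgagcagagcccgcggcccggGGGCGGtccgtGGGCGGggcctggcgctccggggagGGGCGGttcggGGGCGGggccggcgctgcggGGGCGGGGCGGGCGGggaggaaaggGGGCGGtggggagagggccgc
SDC4: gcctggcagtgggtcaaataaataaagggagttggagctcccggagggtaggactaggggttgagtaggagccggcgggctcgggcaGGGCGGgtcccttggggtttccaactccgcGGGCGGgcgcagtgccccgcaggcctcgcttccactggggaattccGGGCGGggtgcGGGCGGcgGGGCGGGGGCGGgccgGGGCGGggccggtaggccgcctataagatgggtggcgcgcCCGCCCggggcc
GPC1: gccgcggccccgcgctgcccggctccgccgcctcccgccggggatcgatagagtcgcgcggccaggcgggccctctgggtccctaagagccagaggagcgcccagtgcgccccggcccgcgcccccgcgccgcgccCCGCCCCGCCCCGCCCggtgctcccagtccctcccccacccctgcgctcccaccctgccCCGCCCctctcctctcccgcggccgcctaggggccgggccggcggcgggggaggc

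These windows were rich in G and C, with 82.8% in *HSPG2*, 73.6% in *SDC4* and 84% in *GPC1*, against a median of 58% over all 35116 promoter entries. *HSPG2* and *SDC4* held 8 GC boxes each and *GPC1* held 4, and 42.64% of all entries held at least 1. Of the 10 members, 7 had an entry, with 8 entries in all, and *SRGN*, *SDC2* and *GPC3* had none. *SDC3* held 5 GC boxes, *BGN* 5, *VCAN* 1 and both entries of *SDC1* 1 each. The letters CACCTG, an E-box that the ZEB and SNAI repressors can bind, were found on either strand in *SDC3* and in 1 of the *SDC1* entries, and in 17.49% of all entries. Neither TGANTCA (an AP-1 motif, in 6.573% of all entries) nor GGAATG (a TEAD motif, in 11.89%) was found in any of the 8 entries, on either strand. A match is only a run of letters within this window.

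Levels are given as TPM, transcript abundances scaled to the same library total and by transcript length, so that genes can be set side by side, and differences as log2 fold changes on log2(TPM + 1). The read depth of the libraries is unknown. Libraries of the same cell variant correlated with r from 0.954 to 0.992 across genes. The line labels fitted most of their markers, as *VIM* averaged 2465 to 4318 TPM in the Panc1 variants and less than 0.37 TPM in each Panc89 variant, and *CDH1* averaged 0.990 to 2.84 TPM in the Panc1 and 75.3 to 98.0 TPM in the Panc89 variants. One mesenchymal marker went against the label, since *FN1* averaged 0.213 to 0.464 TPM in the Panc1 variants and 1.20 to 13.6 TPM in the Panc89 variants. An epithelial marker did so too. In parental Panc89 against parental Panc1, 4 of the 6 epithelial markers were called higher, 1 lower and 1 was not called. Of the 4 mesenchymal markers 1 was called higher, 2 lower and 1 was not called. The 9 fibroblast markers summed to 8.09 to 11.3 TPM in the Panc1 Paraclone, 16.5 to 23.3 TPM in the Panc1 Holoclone and 10.4 to 28 TPM in the other libraries, mostly *COL1A1* and, in Panc1, *THY1*. The 8 endothelial markers summed to 1.92 to 11.2 TPM except in parental Panc89, where *PECAM1* averaged 60.1 TPM. The part of these genes in the results was not tested. In bulk RNA, fewer expressing cells and less RNA per cell cannot be told apart.

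*SRGN* (chromosome 10, 69088103 to 69104805, plus strand) was the member with the widest span, and it was high in Panc1 Paraclone cells. It stood at 181, 207 and 198 TPM in the 3 Panc1 Paraclone libraries, at 13.5, 5.73 and 11.2 TPM in the parental Panc1 libraries and at 1.11, 1.78 and 1.65 TPM in the Panc1 Holoclone libraries. The 3 Panc1 cell variants did not overlap, and parental cells lay between the clones. In Panc89 it was below 0.34 TPM in every library, with means of 0.132 ± 0.0597 TPM in parental, 0.194 ± 0.124 TPM in Holoclone and 0.0939 ± 0.0539 TPM in Paraclone cells (SD, n = 3).

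On the log2 scale, *SRGN* was 6.30 lower in Panc1 Holoclone than in Panc1 Paraclone cells (log2 fold change −6.30), and it differed by 4.21 between Panc1 Paraclone and parental cells and by −2.09 between Panc1 Holoclone and parental cells. These 3 values are descriptive, because the gene was chosen on the Panc1 clones. With a pseudocount of 0.1 TPM in place of 1 they were −6.95, 4.34 and −2.61. Between the parental lines, *SRGN* was lower in Panc89 (log2 fold change −3.23), also as a description. The gene passed the filter on low values through Panc1 libraries alone, so no test is read there. The limma fit also took its spread from all 18 libraries, the Panc1 clones included. The size of that value rests on the pseudocount, since it was −5.41 with 0.1 TPM. In Panc89, Holoclone and Paraclone cells overlapped, with a difference of 0.12 (95% interval −0.33 to 0.58, adjusted p = 0.708 by limma). That test cannot decide, since *SRGN* was near 0 in all Panc89 libraries and entered the test through Panc1.

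Since serglycin is a product of blood cells, the 10 blood cell markers were summed beside it. Their sum was 3.67 to 8.91 TPM in the Panc1 Paraclone libraries, in which *SRGN* was highest, and 5.38 to 7.15 TPM in the Panc1 Holoclone libraries, in which it was at 1.11 to 1.78 TPM. Most of that sum was *CORO1A*, whereas *PTPRC* (CD45) averaged 0.0359 TPM and *CD48* was listed at 0 in the Panc1 Paraclone libraries. In the Panc89 Holoclone libraries the same sum reached 48.1 to 107 TPM, again mostly *CORO1A* (53.3 ± 30.2 TPM) with *LAPTM5* (17.6 ± 1.51 TPM), while *SRGN* stayed at or below 0.337 TPM. Of the 4 blood cell markers that passed the filter on low values, limma called 0 between the Panc1 clones, and 0 had an unadjusted p under 0.05. That result cannot decide, since only 1 of the 10 markers reached 1 TPM in the Panc1 Holoclone libraries and 1 in the Panc1 Paraclone libraries. Others of the 4 thus passed the filter through other groups and were low in both clones.

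**Figure D1:**
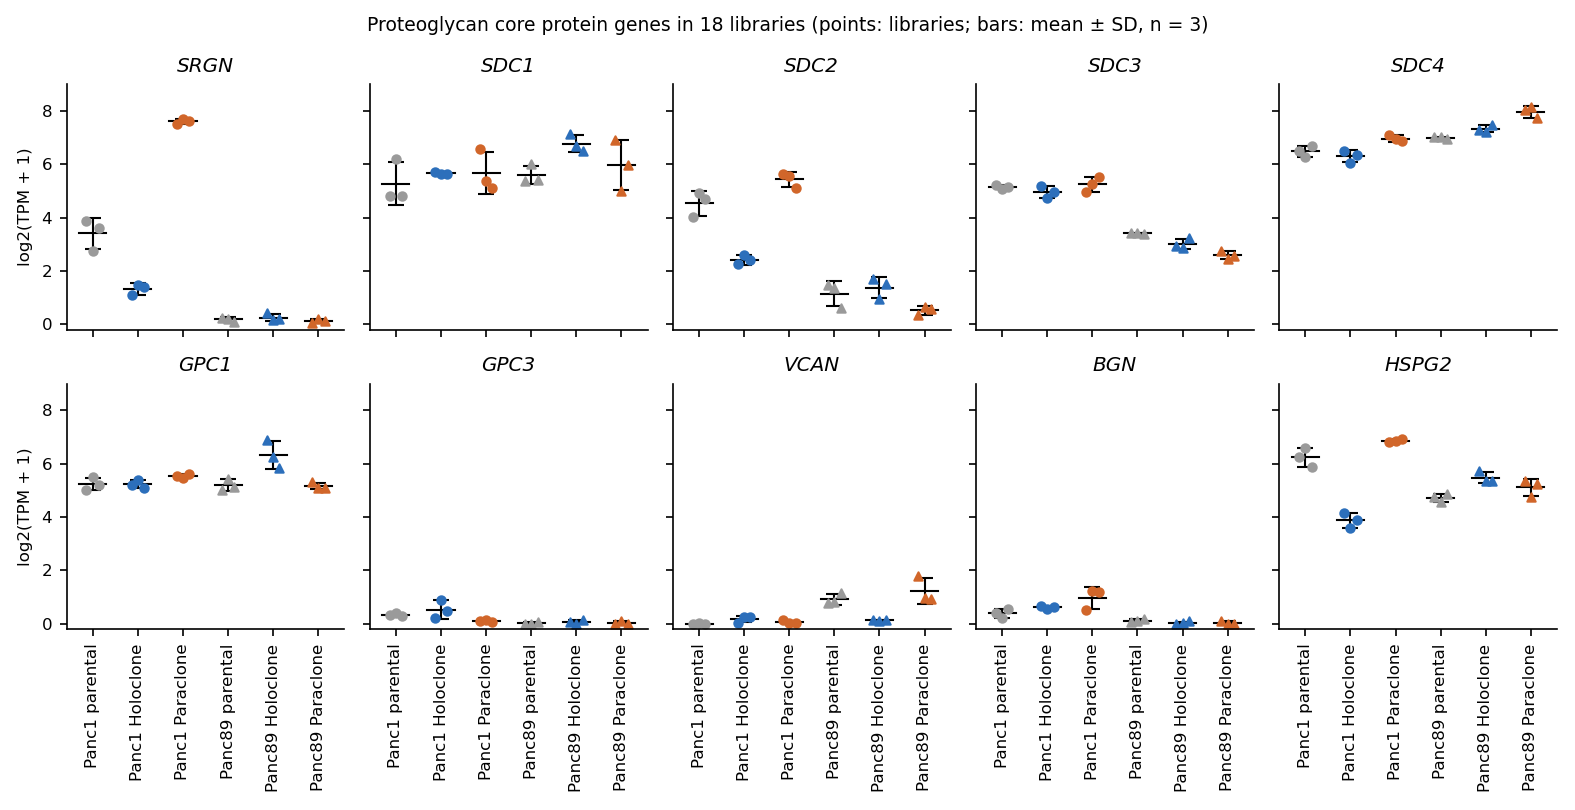
Levels of the 10 proteoglycan core protein genes on the log2(TPM + 1) scale, with the 6 cell variants on the horizontal axis, a point for each library (circles Panc1, triangles Panc89) and bars for the mean ± SD of 3 libraries. *SRGN*, *SDC2* and *HSPG2* step from Holoclone through parental to Paraclone cells in Panc1, *SDC1* scatters within its groups, and *GPC3*, *VCAN* and *BGN* lie near 0.

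Among the syndecans, *SDC2*, the syndecan typical of mesenchymal cells, followed the same order as *SRGN* in Panc1. It stood at 48.8, 46.9 and 33.8 TPM in the Panc1 Paraclone libraries, at 15.3, 29.4 and 24.7 TPM in parental Panc1 and at 3.75, 5.03 and 4.28 TPM in the Panc1 Holoclone libraries, with no overlap between the 3 variants. In Panc89 it was 0.26 to 2.21 TPM in all 9 libraries, below every Panc1 library. *SDC2* was lower in Panc1 Holoclone than in Panc1 Paraclone cells (log2 fold change −3.03 ± 0.27 SE, adjusted p = 3.98e-07) and higher in Panc89 Holoclone than in Panc89 Paraclone cells (0.85 ± 0.27, adjusted p = 0.0204). The Panc89 change was between means of 1.66 and 0.448 TPM, and it missed the threshold without Panc89 Holoclone replicate 1 (adjusted p = 0.0764), without Panc89 Holoclone replicate 3 (0.0645), without Panc89 Paraclone replicate 1 (0.0752) and with no filter on low values (0.0589).

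*SDC3*, which was first described in the nervous system, separated the lines more than the clones. It ranged from 25.9 to 44.9 TPM over the 9 Panc1 libraries and from 4.45 to 9.82 TPM over the 9 Panc89 libraries, and these ranges did not overlap. It was lower in Panc89 in the parental cells (log2 fold change −1.73 ± 0.15 SE, adjusted p = 6.77e-08), in the Holoclone cells (−1.94, adjusted p = 1.68e-08) and in the Paraclone cells (−2.66, adjusted p = 3.84e-10). Within Panc89 it was lower in Paraclone cells than in parental cells (−0.83 ± 0.15, adjusted p = 0.00113). Its Panc89 Holoclone against Paraclone difference of 0.43 passed in the fit of all libraries (adjusted p = 0.0383) but not after either rescaling of the libraries (adjusted p = 0.168 and 0.148), nor when the groups were compared alone (adjusted p = 0.153). Leaving out Panc89 Holoclone replicate 3, Panc89 Paraclone replicate 2 or Panc89 Paraclone replicate 3 also ended that call. The Panc1 clones differed by −0.29 (95% interval −0.62 to 0.03, adjusted p = 0.149), which was −0.44 and passed without Panc1 Paraclone replicate 1 (adjusted p = 0.0367).

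*SDC4*, the ubiquitous syndecan of focal adhesions, was the member with the highest mean level in every cell variant except Panc1 Paraclone cells, where *SRGN* was higher. It stood at 265, 282 and 211 TPM in the Panc89 Paraclone libraries, at 155, 150 and 179 TPM in Panc89 Holoclone and at 129, 130 and 124 TPM in parental Panc89. In Panc1 the Paraclone libraries held 137, 122 and 115 TPM and the Holoclone libraries 89.3, 66.2 and 81.3 TPM. The Paraclone libraries thus lay above the Holoclone libraries in both lines with no overlap. *SDC4* was lower in Holoclone than in Paraclone cells both in Panc1 (log2 fold change −0.66 ± 0.14 SE, adjusted p = 0.00154) and in Panc89 (−0.64 ± 0.14, adjusted p = 0.00208). The difference between those changes was 0.02 (95% interval −0.40 to 0.44, adjusted p = 0.950). *SDC4* was also higher in Panc89 than in Panc1 in the parental (0.51, adjusted p = 0.00428), Holoclone (1.03, adjusted p = 8.37e-06) and Paraclone cells (1.01, adjusted p = 1.19e-05).

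*SDC1*, the main syndecan of epithelial cells, varied more between replicates than between most groups. Its libraries held 93.6, 40.6 and 33.2 TPM in Panc1 Paraclone cells, 52.1, 48.6 and 49.5 TPM in Panc1 Holoclone cells and 27.3, 72.7 and 27.1 TPM in parental Panc1. In Panc89 they held 120, 31.4 and 62.1 TPM in Paraclone, 139, 103 and 90.2 TPM in Holoclone and 40.6, 63.4 and 42.0 TPM in parental cells. Neighbours in the order of its 6 group means overlapped in every case. The Panc1 clones differed by −0.01 (95% interval −0.99 to 0.97, close to 1 log2 unit either way) and the Panc89 clones by 0.81 (−0.18 to 1.79, adjusted p = 0.195). Without Panc89 Paraclone replicate 1, the library at 120 TPM, the latter was 1.28 and passed (adjusted p = 0.0461). Panc89 Holoclone cells were above Panc1 Holoclone cells (1.11 ± 0.46 SE, adjusted p = 0.0455), a call that was lost whichever of the 6 libraries was left out (adjusted p from 0.0537 to 0.132).

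*GPC1*, the glypican known for its increase in pancreatic tumours, was raised in a single cell variant. Its libraries held 119, 74.6 and 57.1 TPM in Panc89 Holoclone cells, and 31.6 to 47.6 TPM in the 15 other libraries. All 3 Panc89 Holoclone libraries were above every other library, though they differed among themselves by more than the other groups did. *GPC1* was higher in Panc89 Holoclone cells than in Panc89 Paraclone cells (log2 fold change 1.17 ± 0.20 SE, adjusted p = 3.76e-04), than in parental Panc89 cells (1.13, adjusted p = 7.37e-04) and than in Panc1 Holoclone cells (1.11, adjusted p = 1.89e-04). In Panc1 the Holoclone and Paraclone libraries did not overlap, at 33.4 to 41.2 and 43.7 to 47.6 TPM, and differed by −0.32 (95% interval −0.75 to 0.12, adjusted p = 0.251). After median-of-ratios scaling that difference was −0.60 and passed the threshold (adjusted p = 0.0252), as it did at −0.32 when the groups were compared alone (adjusted p = 0.0487).

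*GPC3*, the glypican of fetal tissue and liver cancer, did not reach 1 TPM in any library. It stood at 0.144, 0.846 and 0.398 TPM in the Panc1 Holoclone libraries, at 0.261, 0.328 and 0.203 TPM in parental Panc1 and at 0.0527 to 0.0883 TPM in the Panc1 Paraclone libraries. The Holoclone and parental ranges overlapped, and the Paraclone libraries lay below both. It was listed at 0 in 5 of the 9 Panc89 libraries. It was left out of the tests by the filter, which asked for at least 1 TPM in at least 3 libraries.

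Of the matrix proteoglycans, *HSPG2* was abundant and changed with the cell variant in Panc1. It stood at 113, 114 and 121 TPM in the Panc1 Paraclone libraries, at 76.2, 95 and 57.9 TPM in parental Panc1 and at 16.9, 11 and 13.8 TPM in the Panc1 Holoclone libraries. The 3 variants did not overlap. *HSPG2* was lower in Panc1 Holoclone cells than in Panc1 Paraclone cells (log2 fold change −2.99 ± 0.19 SE, adjusted p = 1.28e-08) and than in parental Panc1 cells (−2.37, adjusted p = 1.07e-06).

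In Panc89 the order of *HSPG2* was another one. Its libraries held 51.8, 40.1 and 40.1 TPM in Holoclone, 39.9, 26 and 37.0 TPM in Paraclone and 25.8, 22.4 and 27.8 TPM in parental cells. Holoclone cells were highest, and above parental Panc89 cells (0.77 ± 0.19, adjusted p = 0.00904), while their difference from Paraclone cells was 0.36 (95% interval −0.05 to 0.77, adjusted p = 0.169). Panc89 was thus below Panc1 in the parental cells (−1.53, adjusted p = 4.39e-06) and in the Paraclone cells (−1.75, adjusted p = 1.12e-06), and above it in the Holoclone cells (1.60, adjusted p = 2.67e-06). Exons of *HSPG2* share 2122 bases with the antisense gene *LDLRAD2*, which was at 0 to 0.0974 TPM in these libraries.

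*VCAN* and *BGN* were near the lower limit, each at 1 TPM or more in 2 of the 18 libraries, and were left out of the tests. *VCAN* stood at 2.41, 0.962 and 0.901 TPM in the Panc89 Paraclone libraries and at 0.694, 0.744 and 1.22 TPM in parental Panc89. The Panc89 Holoclone libraries held 0.0998, 0.0712 and 0.104 TPM and no Panc1 library exceeded 0.195 TPM. *BGN* stood at 0.411, 1.31 and 1.28 TPM in the Panc1 Paraclone libraries, at 0.164 to 0.569 TPM in the other Panc1 libraries and at no more than 0.121 TPM in Panc89.

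With no filter on low values, these 3 low members had calls in some comparisons. *VCAN* was lower in Panc89 Holoclone cells than in Panc89 Paraclone cells (log2 fold change −1.10, adjusted p = 7.85e-04) and than in parental Panc89 cells (−0.78, adjusted p = 0.0123), and the Holoclone against Paraclone change differed between the lines by −1.23 (adjusted p = 0.00446). It was higher in Panc89 than in Panc1 in the parental (0.90, adjusted p = 0.00125) and Paraclone cells (1.18, adjusted p = 1.63e-04). *BGN* was higher in Panc1 Paraclone than in parental Panc1 cells (0.58, adjusted p = 0.0237) and lower in Panc89 than in Panc1 in the Holoclone (−0.58, adjusted p = 0.00798) and Paraclone cells (−0.94, adjusted p = 2.51e-04). *GPC3* was higher in Panc1 Holoclone than in Panc1 Paraclone cells (0.43, adjusted p = 0.0283) and lower in Panc89 than in Panc1 Holoclone cells (−0.46, adjusted p = 0.00882). No library of these 3 genes exceeded 2.41 TPM.

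Between the parental lines, 4 of the 6 tested members other than *SRGN* passed the threshold, a share to be read against 66% of the 16093 genes tested. *SRGN* is left out of the count, because it could only enter the test through Panc1, where it is high. *SDC2* (log2 fold change −3.40 ± 0.27 SE, adjusted p = 1.73e-08), *SDC3* and *HSPG2* were lower in Panc89, where 38.5% of all genes were called lower, and *SDC4* was higher, where 27.5% were. *GPC1* differed by −0.04 (95% interval −0.47 to 0.40) and *SDC1* by 0.32 (−0.66 to 1.31). *SRGN* and *SDC2* reached 1 TPM in 9 and 13 libraries, the other 5 tested members in all 18.

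Between the lines within a clone type, the 6 members other than *SRGN* were tested. All 6 differed between the Holoclone cells of the lines, against 65.8% of all genes, with *SDC1*, *SDC4*, *GPC1* and *HSPG2* higher in Panc89 and *SDC2* (−1.04 ± 0.27 SE, adjusted p = 0.00289) and *SDC3* lower. The count was 5 whichever library was left out, each time through the loss of *SDC1*, whose call was also lost with no filter on low values (adjusted p = 0.138). Between the Paraclone cells 4 of 6 differed, against 60.7% of all genes, with *SDC2* (−4.92 ± 0.27, adjusted p = 2.06e-10), *SDC3* and *HSPG2* lower in Panc89 and *SDC4* higher. *GPC1*, at −0.38, passed there as well when the groups were compared alone (adjusted p = 0.0217). *SRGN* was 1.07 below Panc1 in the Panc89 Holoclone cells and 7.49 below in the Paraclone cells (log2 fold changes −1.07 and −7.49), as a description. With a pseudocount of 0.1 TPM these values were −2.51 and −10.02, so their size rests on the pseudocount. These counts share libraries with those of the clones and are not independent of them.

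**Figure D2:**
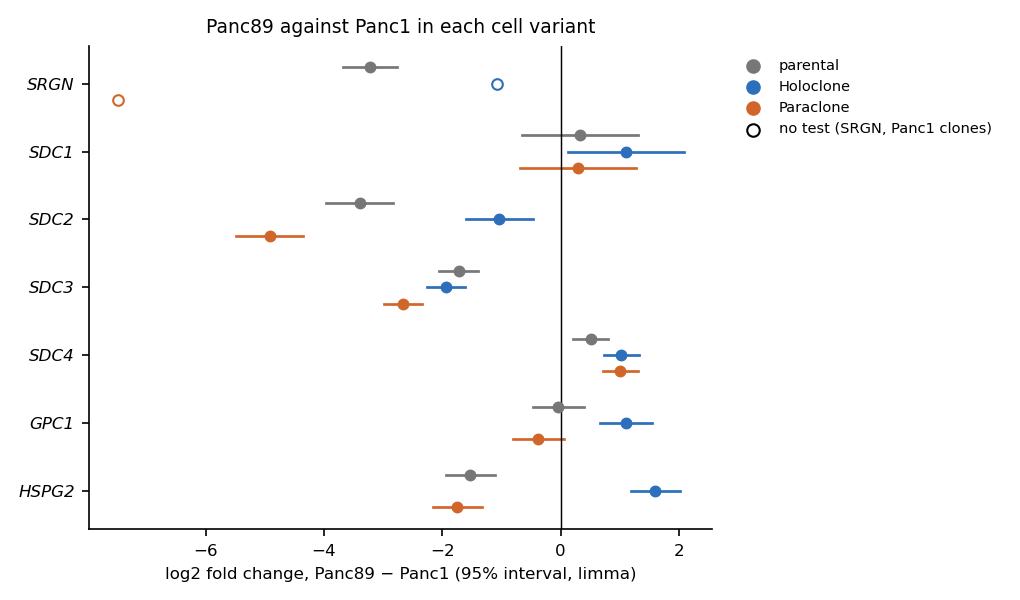
Log2 fold change of Panc89 against Panc1 on the horizontal axis for the 7 tested members, in parental, Holoclone and Paraclone cells, with 95% intervals from limma and open circles for *SRGN* in the clones, where no test was made. The interval of *SRGN* in parental cells is not read as a test, as the gene passed the filter through Panc1 libraries alone. *HSPG2* lies at −1.53 and −1.75 in parental and Paraclone cells and at 1.60 in Holoclone cells, and *SDC4* lies above 0 in all 3.

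Between Holoclone and Paraclone cells of Panc1, 3 of the 6 members tested passed the threshold, against 37.3% of all genes. *HSPG2*, *SDC2* and *SDC4* were lower in Holoclone cells, where 9.97% of all genes were called lower, and no member was called higher, where 27.4% were, as all 6 fold changes were below 0. The median over all genes in this comparison was 0.19 and not 0, and 73.3% of called genes were higher. After median-of-ratios or upper quartile scaling that median was −0.000626 or 0.0068 and the share higher was 46.8% or 51.3%. The same 3 members passed after both scalings, and *SDC3* (−0.57 and −0.53) and *GPC1* (−0.60 and −0.56) passed as well.

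Between Holoclone and Paraclone cells of Panc89, 4 of the 6 tested members other than *SRGN* passed, against 35.7% of all genes. *SRGN* is left out of the count, because it entered the test through Panc1 alone. *GPC1*, *SDC2* and *SDC3* were higher in Holoclone cells, where 22.4% of all genes were called higher, and *SDC4* was lower, where 13.3% were. Of all called genes 62.8% were higher, which became 49.1% and 52.5% after the 2 scalings. The *GPC1* and *SDC4* calls held in every alternative run, whereas those of *SDC2* and *SDC3* did not, as given above. Without Panc89 Holoclone replicate 3 the count was 2.

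**Figure D3:**
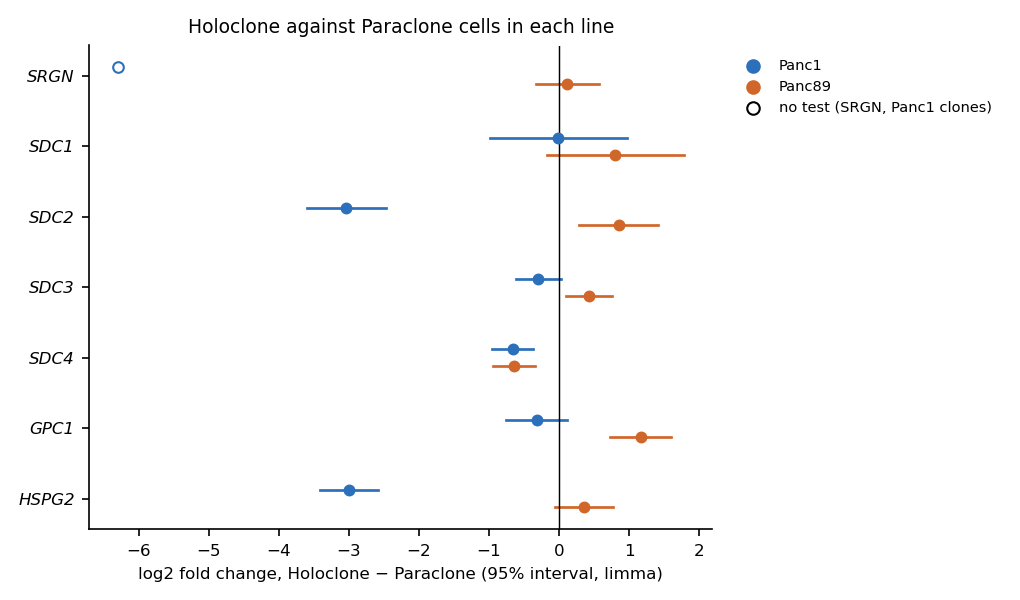
Log2 fold change of Holoclone against Paraclone cells on the horizontal axis for the 7 tested members in Panc1 and Panc89, with 95% intervals from limma and an open circle for *SRGN* in Panc1, where no test was made. The lines lie far apart for *SDC2* and *HSPG2* and together for *SDC4*, at −0.66 and −0.64.

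The difference between the lines in the Holoclone against Paraclone change was tested directly. It passed the threshold for 4 of 6 members, against 35.1% of all genes. It was 3.88 ± 0.38 for *SDC2* (SE, adjusted p = 1.38e-06), 3.35 ± 0.28 for *HSPG2* (adjusted p = 2.39e-07), 1.48 ± 0.29 for *GPC1* (adjusted p = 9.37e-04) and 0.72 ± 0.21 for *SDC3* (adjusted p = 0.0164), each as Panc89 minus Panc1 on the log2 scale. For these 4 members, Holoclone cells were lower than Paraclone cells in Panc1 and higher in Panc89 by their means, although the *SDC3* and *GPC1* differences in Panc1 and that of *HSPG2* in Panc89 did not pass on their own. *SDC1* (0.81, 95% interval −0.58 to 2.20) and *SDC4* did not pass. The value for *SRGN* was 6.42, or 7.51 with a pseudocount of 0.1 TPM, as a description.

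Against the parental cells, 2 of 6 members passed in Panc1 Holoclone cells, against 10.9% of all genes, namely *HSPG2* and *SDC2* (−2.13 ± 0.27 SE, adjusted p = 7.81e-05). In Panc1 Paraclone cells 3 of 6 were called higher than in parental cells, against 28.6% of all genes. They were *SDC2* (0.90, adjusted p = 0.0195), *HSPG2* (0.63, adjusted p = 0.0251) and *SDC4* (0.48, adjusted p = 0.0185), and all 3 calls were lost when the groups were compared alone (adjusted p = 0.0705, 0.0627 and 0.0517). With no filter on low values those of *SDC2* (adjusted p = 0.0595) and *HSPG2* (0.0717) were lost. In Panc89 Holoclone cells 2 of the 6 members other than *SRGN* passed, against 24.7%, namely *GPC1* and *HSPG2*. In Panc89 Paraclone cells 2 of the same 6 passed, against 19.4%, with *SDC4* higher (0.97 ± 0.14, adjusted p = 1.44e-04) and *SDC3* lower. Comparisons within a line share their libraries.

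Because TPM are scaled by length, the 6 syndecan and glypican members can be added within a library to describe the make-up of their summed transcripts. Other glypicans and surface proteoglycans are not in this sum, so the shares are of these 6 genes only. Their sum averaged 201 ± 14.2 TPM in Panc1 Holoclone cells, 227 ± 27.2 in parental Panc1, 307 ± 42.6 in Panc1 Paraclone, 223 ± 20.6 in parental Panc89, 365 ± 49.99 in Holoclone and 365 ± 60.1 in Paraclone Panc89 cells (SD, n = 3). *SDC4* had the largest mean share in every variant, from 39.2 to 40.8% in Panc1, and 57.3 ± 4.18%, 44.9 ± 8.21% and 69.8 ± 9.44% in Panc89 parental, Holoclone and Paraclone cells. In Panc1 the share of *SDC2* differed most, with 2.19 ± 0.473% in the Holoclone and 14 ± 1.95% in the Paraclone variant. In Panc89 the share of *GPC1* was 22.5 ± 5.65% in the Holoclone and 9.71 ± 0.897% in the Paraclone variant, and that of *SDC1* was 30.1 ± 3.09% and 18.9 ± 9.55%. The clones with the same sum in Panc89 thus differed in its parts, with no test made on shares.

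**Figure D4:**
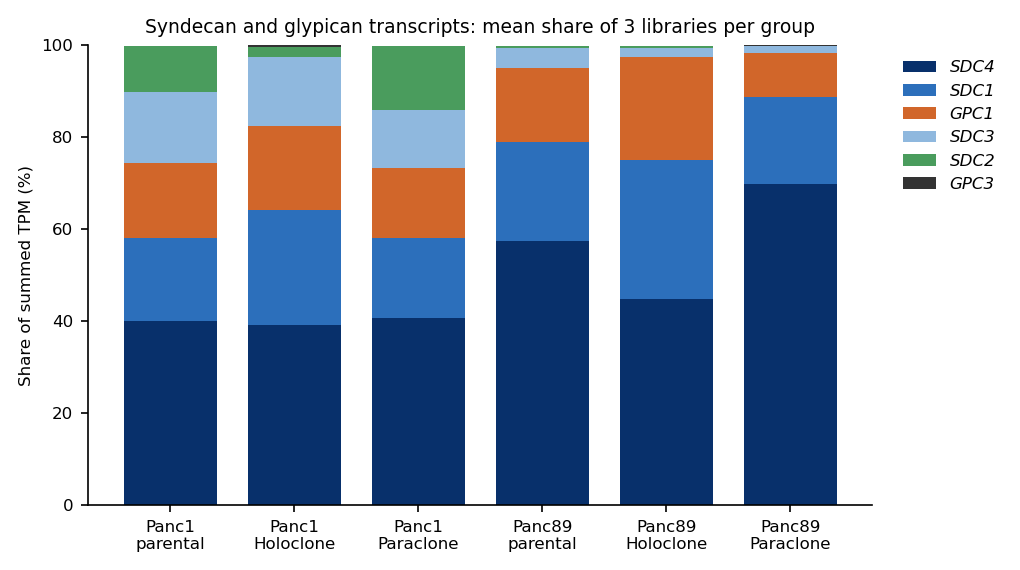
Mean share in percent of each of the 6 syndecan and glypican members (*SDC1* to *SDC4*, *GPC1* and *GPC3*) in their summed TPM, for the 6 cell variants (3 libraries each). *SDC4* fills the largest part of each bar, *SDC2* is visible only in Panc1, and *GPC1* is wider in Panc89 Holoclone (22.5%) than in Panc89 Paraclone cells (9.71%).

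The other genes of the pathway were taken from lists of core proteins, chain synthesis, chain trimming and binding partners, chosen with earlier results of these data known. Where limma called 0 genes of a list in a direction, 0 also had an unadjusted p under 0.05, except for the chondroitin or dermatan sulfate core proteins between the Panc1 clones, with 1 higher and 1 lower. Of all genes, 27.4% were called higher and 9.97% lower in Panc1 Holoclone than in Panc1 Paraclone cells. The shares were 22.4% and 13.3% in the same comparison of Panc89, and 27.5% and 38.5% in parental Panc89 against parental Panc1. The counts of each list are to be read against these shares, which are from the fit without rescaling. The tested genes of a list include some near 0 in 1 or both of the groups compared, which passed the filter through other groups. Among other heparan sulfate core proteins, 4 of 8 tested genes were lower in Panc1 Holoclone than in Paraclone cells and 1 was higher. *SPOCK1* (testican-1) averaged 0.947 and 31.3 TPM (log2 fold change −4.08 ± 0.25 SE, adjusted p = 8.09e-09), and *AGRN* (agrin) and *COL18A1* (collagen XVIII), both in basement membranes like perlecan, changed by −1.41 (adjusted p = 1.57e-05) and −0.57 (adjusted p = 0.0303). In Panc89 2 of the 8 were higher in Holoclone cells and none was lower. Parental Panc89 cells had 3 of them higher and 3 lower than parental Panc1 cells, with *COL18A1* at 29.7 TPM in Panc89 and 498 TPM in Panc1 and *AGRN* the other way, at 213 and 82.3 TPM.

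Few other core proteins with chondroitin or dermatan sulfate or of the small leucine-rich class were expressed, with 3 of 10 and 2 of 12 tested. In the former list no gene was called between the Panc1 clones, and in Panc89 1 was higher and 1 lower in Holoclone cells. The higher one was *THBD* (thrombomodulin), at 120 ± 40.2 and 29.0 ± 28.6 TPM (2.57 ± 0.65 SE, adjusted p = 0.00573). Of the small leucine-rich genes 1 was higher in Panc1 Holoclone cells and 1 lower in Panc89 Holoclone cells. Between the parental lines 1 gene of each list was higher in Panc89 and none was lower.

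For the sugar chains, the genes that make the shared linker and the sulfate donor changed little in Panc1, where 1 of 11 was lower in Holoclone cells, *PAPSS2* (−0.73, adjusted p = 0.00334), and none was higher. After the 2 scalings 5 and 4 of them were lower. In Panc89 2 of 11 were higher and 3 lower in Holoclone cells, which became 1 and 5 after median-of-ratios and 1 and 4 after upper quartile scaling, with *UGDH*, which makes the glucuronic acid donor, at 65.1 and 22.6 TPM (1.45, adjusted p = 2.13e-05). Parental Panc89 cells had 2 higher and 6 lower than parental Panc1 cells, or 3 and 5 after either scaling, with *UGDH* at 24.9 TPM in Panc89 and 141 TPM in Panc1.

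Genes for heparan sulfate chains and their sulfation were called in 1 direction in Panc89. In Holoclone cells 6 of 11 were higher and none was lower, against 22.4% of all genes called higher and 13.3% lower. After either scaling 5 were higher and none was lower. Of all called genes 62.8% were higher without rescaling, and 49.1% and 52.5% after the 2 scalings. The higher genes of the list included the sulfotransferases *HS3ST1* (1.27, adjusted p = 0.00272), *HS6ST2* (1.03, adjusted p = 1.93e-05) and *HS6ST1* (0.93, adjusted p = 0.0114). The Panc89 Holoclone libraries varied in *HS3ST1* (27.1 ± 9.68 TPM) and *HS6ST1* (21.1 ± 11.7 TPM, SD, n = 3). The lists were not checked with a library left out or with the groups alone. In Panc1 2 were higher and 2 lower, which became 1 and 4 after either scaling, with the polymerase *EXT1* at −0.66 (adjusted p = 0.0285). The call of *NDST1*, which starts sulfation (0.54, adjusted p = 0.00845), was lost after both scalings. Between the parental lines 4 were higher and 6 lower in Panc89, or 5 and 5 after either scaling, with *HS6ST2* at 16.4 TPM in Panc89 and 0.0823 TPM in Panc1.

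Genes for chondroitin and dermatan sulfate were lower in Panc1 Holoclone than in Panc1 Paraclone cells for 8 of 14 tested, against 9.97% of all genes called lower, and 3 were higher, against 27.4%. After either scaling 9 were lower and 2 higher. The shares of all genes are from the fit without rescaling, in which 73.3% of called genes were higher. After median-of-ratios or upper quartile scaling 46.8% or 51.3% of called genes were higher. *CSGALNACT1*, which starts chondroitin chains, averaged 1.10 and 21.9 TPM (−3.45 ± 0.13 SE, adjusted p = 2.65e-11), and the 4-O-sulfotransferase *CHST11* 0.794 and 14.1 TPM (−3.07 ± 0.13, adjusted p = 1.24e-10), while the 6-O-sulfotransferase *CHST3* was higher (1.01, adjusted p = 8.68e-05). In Panc89 2 were higher and 3 lower in Holoclone cells. *CSGALNACT1* and *CHST11* were lower there too, by log2 fold changes of −3.74 (adjusted p = 1.27e-11) and −1.15 (adjusted p = 7.57e-06), and the uronyl sulfotransferase *UST* was higher (2.43, adjusted p = 3.63e-08). In the parental cells 5 were higher and 5 lower in Panc89.

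Among the genes that trim chains or cleave core proteins, 1 of 10 was higher and 1 lower in Panc1 Holoclone cells, or 1 and 2 after either scaling. The lower one was *ADAMTS15*, a protease of versican and aggrecan (3.95 and 30.8 TPM, −2.70 ± 0.27 SE, adjusted p = 1.40e-06). Only 6 genes of this list reached 1 TPM in the Panc1 Holoclone libraries and 6 in the Panc1 Paraclone libraries. Some of the 10 tested were thus near 0 in both clones, such as *SULF1* (0.0303 and 0.0477 TPM), and could hardly be called. In Panc89 3 were higher and 3 lower, with *ADAMTS1*, another versican protease, at 73.3 TPM in Holoclone and 5.4 TPM in Paraclone cells (3.49 ± 0.20, adjusted p = 4.89e-09). *ADAM10*, a sheddase of syndecans, was higher by 0.49 (adjusted p = 7.13e-04), and *BMP1*, which processes procollagens, was lower (−0.89, adjusted p = 9.63e-04). Between the parental lines 6 were higher and 2 lower in Panc89. The endosulfatase *SULF2*, which removes sulfate from heparan sulfate at the cell surface, was at 31.8 TPM in Panc89 and 0.155 TPM in Panc1. Its log2 fold change of 4.81 is a description, since *SULF2* was near 0 in parental Panc1 and the size rests on the pseudocount.

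Of the hyaluronan genes 3 of 11 were higher and 4 lower in Panc1 Holoclone cells, which became 2 and 6 after either scaling. *CD44*, the hyaluronan receptor, averaged 584 ± 112 and 1864 ± 215 TPM (−1.68 ± 0.20 SE, adjusted p = 7.94e-06), and *HAPLN3*, a link protein, 74.6 and 4.07 TPM (3.89 ± 0.35, adjusted p = 5.36e-07). The synthase *HAS3* was lower (−2.17 ± 0.65, adjusted p = 0.0148), with 13.9 ± 13.7 TPM in Paraclone cells. In Panc89 2 were higher and 2 lower, and between the parental lines 5 were higher and 3 lower in Panc89.

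The cytoplasmic partners of syndecans were all expressed. In Panc1 Holoclone cells 4 of 10 were higher and 2 lower, which turned to 1 and 4 after median-of-ratios and 2 and 4 after upper quartile scaling, so no direction can be given for this list. In Panc89 Holoclone cells 4 were higher and 2 lower under all 3 scalings. *SRC* was higher (1.87 ± 0.13 SE, adjusted p = 2.49e-08), *SDCBP2* (syntenin-2) averaged 3.59 and 56.6 TPM (−3.51 ± 0.42, adjusted p = 1.01e-05) and *EZR* (ezrin) was lower (−1.31 ± 0.23, adjusted p = 3.77e-04). Between the parental lines 3 were higher and 2 lower in Panc89, which became 5 and 1 after median-of-ratios and 5 and 2 after upper quartile scaling.

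**Figure D5:**
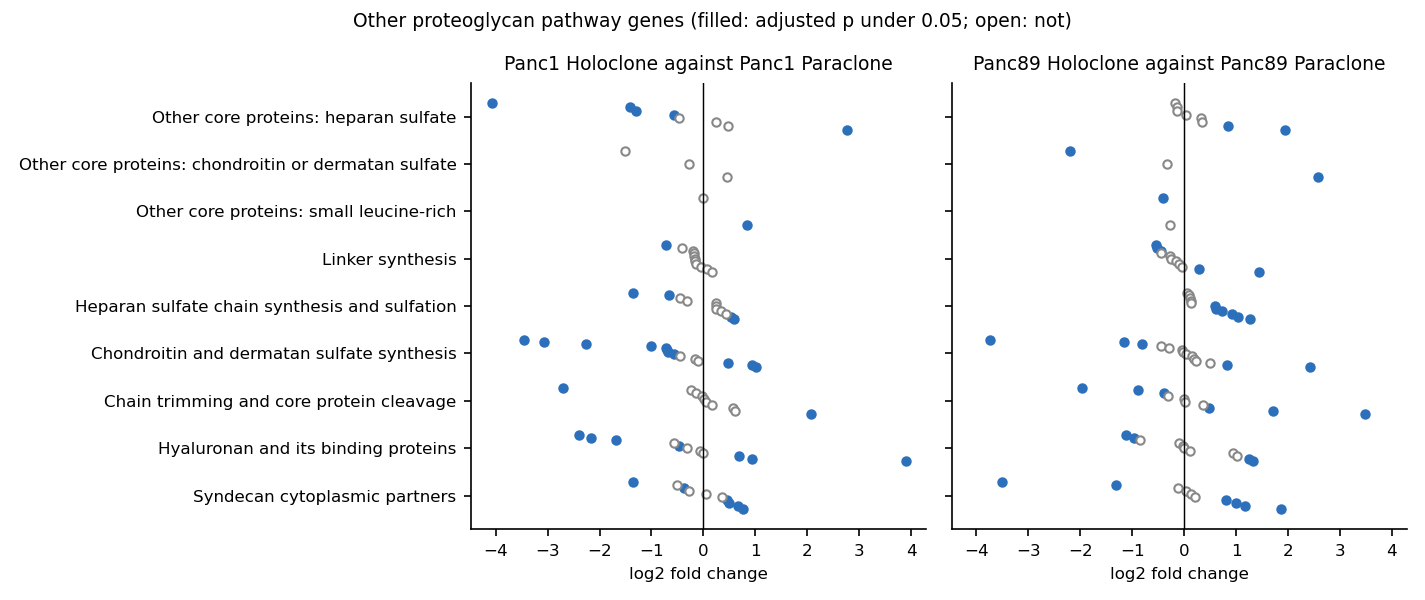
Log2 fold change of Holoclone against Paraclone cells on the horizontal axis for the other genes of the pathway, a point for each tested gene, with the 9 lists on the vertical axis and the 2 lines in 2 panels (filled points passed the threshold). In Panc89 the called heparan sulfate synthesis genes, 6 of 11, lie to the right of 0, and in Panc1 8 of 14 chondroitin and dermatan sulfate synthesis genes lie to the left as called points.

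For the pattern over all 18 libraries, the genes most like each member were found by Pearson's r among 10914 other tested genes with a mean of at least 10 TPM in some cell variant. The points are 3 cultures each of 6 cell variants, so these values are a description. *SRGN* was most like *SCUBE3* (r = 0.991), *CORO2B* (0.990) and *AFF3* (0.984). That likeness is not independent of the choice of *SRGN* on the Panc1 clones, since it uses the same libraries. *SCUBE3* had a log2 fold change of −5.94 between those clones. *SDC2* was most like *ADRA1B* (0.973), *SLIT3* (0.973) and *DACT2* (0.970). *SDC3* was most like *NRSN2* (0.989), *GSTM4* (0.988) and *LOXL1-AS1* (0.987).

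*SDC4* was most like *ADIPOR1* (0.934), *VEGFC* (0.926) and *CEACAM1* (0.923), and *HSPG2* most like *ONECUT3* (0.945), *ARHGAP26* (0.893) and *LHX1* (0.891). *SDC1* was most like *MAD1L1* (0.920), *FSCN1* (0.829) and *WNT7B* (0.819), and *GPC1* most like *MTSS2* (0.889), *FSCN1* (0.875) and *GANAB* (0.867). *FSCN1*, which codes for the actin bundling protein fascin, was thus named for both. Among the members themselves, *SDC2* and *HSPG2* had r = 0.956 over the 9 Panc1 libraries and 0.102 over the 9 Panc89 libraries, and *SDC3* and *SDC4* had 0.542 and −0.857.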

How the data were processed

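PolyA RNA of 18 libraries was sequenced. Raw reads were mapped by the authors to Ensembl GRCh38.106 transcripts with kallisto (v0.46.1) and summarized per gene with tximport as scaled TPM. Testing the values showed that the deposited table holds log2(TPM + 1) values, so no counts, depth or counting error can be given. Whether kallisto was run with a strand setting is not given in the sources used here. TPM were recovered as 2 to the power of the value, minus 1.

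All 18 libraries were fitted with limma (3.58.1, R 4.3.3) with a mean for each of 6 groups, a trended variance and Benjamini-Hochberg adjustment over the 16093 genes that reached 1 TPM in 3 or more libraries. Calls had an adjusted p under 0.05, two-sided. The script was tested on simulated data. Replicate numbers did not pair the samples, so no block was used. Alternatives were another pseudocount, no filter, 2 rescalings, the groups alone, a replicate block and leaving out each library.

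The members and gene lists were chosen with earlier results of these data known. All members were named, with up to 3 called genes per list and comparison by fold change (at least 10 mean TPM in the higher group, no overlap of replicates) and the 3 genes most correlated with each tested member. The list scalings were chosen after seeing the data. Gene positions came from GENCODE, promoters from RefSeq.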

Additional observations from a re-analysis of the deposited data

Results flagged for a closer look

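The change from Paraclone to Holoclone cells differed between the lines for 4 members by a test of the difference itself (limma, 3 libraries in each of 4 groups, Panc89 minus Panc1 on the log2 scale). The difference was 3.88 for *SDC2*, made up of −3.03 in Panc1 and 0.85 in Panc89. It was 3.35 for *HSPG2*, from −2.99 and 0.36, and 1.48 for *GPC1*, from −0.32 and 1.17. It was 0.72 for *SDC3*, from −0.29 and 0.43. Each line is represented by 1 clone of each kind, so differences between lines and between clones cannot be told apart.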

How the results depend on the processing

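Depth is unknown, so precision rests on 3 libraries per group. The replicate numbers did not pair the samples, with correlations of same-numbered deviations from −0.318 to 0.190 over 18 pairs and 3 above 0.1. With a replicate block within each line, *SDC4* between the parental lines (0.41, adjusted p = 0.0672), *SDC1* (1.3, 0.0909) and *SDC2* (−0.73, 0.104) between the Holoclone cells and *SDC3* between the Panc89 clones (0.43, 0.0657) lost their calls, and the block moved no other call of a member. The members past the threshold between the Panc1 clones were 5 in place of 3 after either scaling. Between the Panc89 clones they were 2 to 4 when a library was left out (2 without Panc89 Holoclone replicate 3), and all called genes were 3377 in place of 5746 when the groups were compared alone. Between Panc1 Paraclone and parental cells they were 0 in place of 3 with the groups alone and 1 to 2 with a library left out (1 without Panc1 parental replicate 1, Panc1 Paraclone replicate 1 or Panc1 Paraclone replicate 2). Between Panc89 Holoclone and parental cells they were 4 in place of 2 with the groups alone. Between Panc1 Holoclone and parental cells the called genes were 1061 to 1571 in place of 1759 with a library left out, with 1061 without Panc1 Holoclone replicate 3. The cause was not tested. In Panc1 Paraclone against parental cells, *SDC2* lost its call without Panc1 parental replicate 1 or Panc1 Paraclone replicates 1 or 2, *SDC4* without Panc1 parental replicate 2 or Panc1 Paraclone replicate 1, and *HSPG2* without Panc1 parental replicates 1 or 3 or Panc1 Paraclone replicates 2 or 3. Single calls were also gained with the groups alone by *GPC1* between the Paraclone cells of the lines (−0.38, adjusted p = 0.0217) and, against parental cells, after median-of-ratios scaling by *GPC1* in Panc1 Paraclone (0.0494) and *SDC3* in Panc89 Holoclone cells (0.0443) and with a pseudocount of 0.1 TPM by *SDC2* in Panc89 Paraclone cells (0.0398). Calls were gained against parental Panc89 by *SDC3* in Holoclone cells without Panc89 Holoclone replicate 3 (adjusted p = 0.0421) and in Paraclone cells by *SDC2* without Panc89 parental replicate 3 (0.0406) and by *HSPG2* without Panc89 Paraclone replicate 2 (0.0384). The sign turned only for differences that were not called. *GPC1* between the parental lines was 0.22 with the replicate block, 0.20 and 0.12 after median-of-ratios and upper quartile scaling, and −0.16 to 0.090 with a library left out, and between Panc89 Paraclone and parental cells it was 0.0040 after median-of-ratios scaling and −0.12 to 0.084 with a library left out. With a library left out, *SDC1* went from −0.18 to 0.77 between the Paraclone cells of the lines, from −0.30 to 0.44 between the Panc1 clones, from −0.043 to 0.86 between Panc1 Paraclone and parental cells and from −0.11 to 0.85 between Panc89 Paraclone and parental cells. *SDC4* went from −0.10 to 0.11 in the difference between the lines, *GPC1* from −0.12 to 0.12 between Panc1 Holoclone and parental cells, *SDC3* from −0.022 to 0.25 between Panc1 Paraclone and parental cells, and *SRGN* and *SDC2* from −0.011 to 0.12 and −0.036 to 0.44 between Panc89 Holoclone and parental cells. Of 804 recomputed log2 fold changes with a test, 727 kept their direction and their side of the threshold. These include *SRGN* between the parental lines and within Panc89, where its tests are not read. They also include fits that left out 1 library and so share most of their data, so they are not independent checks.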
